A study of Bos taurus with 12 samples.

Results

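Gene expression in the corpus luteum was compared between cows on day 15 of pregnancy and cows on day 15 of the estrous cycle. All were Japanese-Black cattle of 1 ranch, and the glands were taken within 10 to 30 min of exsanguination. The pregnant group (P15) and the cyclic group (NP15) each held 4 animals with 1 array per animal, which makes 8 of the 12 arrays of the series; for the pregnant cows the day of insemination was counted as day 1. Total RNA of whole tissue was labelled with Cy3 and hybridised to 1-colour Agilent arrays with 15208 gene probes in 192 rows and 82 columns. The comparison rests on the inner rows, 25 to 168, which hold 11432 of these probes. Probes had to read well above background on 3 or more arrays of 1 group, which left 9456 inner probes for 9308 genes, of which 3851 had a gene symbol and 8224 were well above background on all 8 arrays. The 24 rows nearest each edge, with 3096 genes of their own, were analysed apart. All NP15 arrays lay in slide row 1 and all P15 arrays in slide row 2 of the same slide. Slide position and group therefore cannot be told apart for any probe, in inner or outer rows. Of all gene probes, 79.6% to 85.6% read well above background on the NP15 arrays and 75.3% to 80.5% on the P15 arrays, and the number of arrays limits the precision, with a median SE of 0.19 for a log2 change.

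The corpus luteum forms in the ovary from the ovulated follicle and secretes the progesterone that maintains pregnancy. In a cyclic cow, prostaglandin F2 alpha from the uterus ends the life of the gland in the days after this stage. In a pregnant cow, interferon tau from the trophoblast of the elongating conceptus restrains that release, and interferon tau or cells it has acted on can reach the ovary by the blood, where interferon-stimulated genes serve as a readout. The gland is made of steroidogenic luteal cells, a dense bed of blood vessels, fibroblasts and immune cells. Because whole tissue was measured, fewer cells of a type and less RNA per cell cannot be told apart. All 10 inner-row members of the luteal steroidogenic cell list were measured well enough to pass the filter.

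No inner-row gene passed the test between pregnant and cyclic glands. Limma called 0 of 9308 genes after Benjamini-Hochberg adjustment at 0.05 (0% called), and the smallest adjusted p was 0.929, so every inner gene named below had an adjusted p of at least that. The median log2 change, P15 minus NP15, was -0.05, and 5% of genes lay below -0.46 and 5% above 0.51. The list mean of chemokine and cytokine genes ranged widely among the animals of both groups, with an SD of 0.38 in NP15 and 0.47 in P15, and so did that of T cell genes, at 0.42 and 0.36. For interferon-stimulated genes the SD was 0.13 in NP15 and 0.64 in P15, and for the list mean of progesterone synthesis it was 0.01 and 0.07. These SDs leave out members in a dim region of NP15 replicate 4 and use a 75th percentile taken outside it, as described below. That percentile is 0.22 higher on NP15 replicate 4, which lowers its list means, so the NP15 SDs depend on it. No inner-row gene is therefore called higher or lower below, and values at an unadjusted p under 0.05 are given as a description. The signs of list medians were checked in 30 other settings of the processing, and each list median is given with how often it lay on either side of 0. These settings reprocess the same arrays, so a sign kept in all of them is no further evidence of a difference.

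Before the genes, the arrays themselves need a description, since 1 of them had a dim region and the rows near the edges differed between the groups. Unless stated otherwise, values are log2 of the processed signal minus the 75th percentile of the array. On NP15 replicate 4, spots in an oval patch over rows 60 to 160 and columns 23 to 54 read low against the other 7 arrays. The patch held 2325 probes with a median deviation of -1.10, and the lowest local median in it was -4.31. A strip of 91 probes at the right edge, in rows 14 to 57 and columns 80 to 82, had a median deviation of -1.24. Together these areas covered 2401 inner probes of that array, 21% of the inner rows, and 405 of its 426 inner probes that lay 2 or more log2 units under the other arrays were inside them. The other 7 arrays had 0 to 2 inner probes in such areas. Results are therefore also given with these low-area spots left out, a setting chosen after seeing the data. It also takes the 75th percentile over the probes in no low area. That percentile was 0.22 higher on NP15 replicate 4 and 0.01 to 0.03 lower on the other arrays, so in this setting the values of every probe of NP15 replicate 4 drop and a gene with no low-area spot also moves. The mean deviations of gene lists by animal, and their SDs, all use this percentile.

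**Figure D1:**
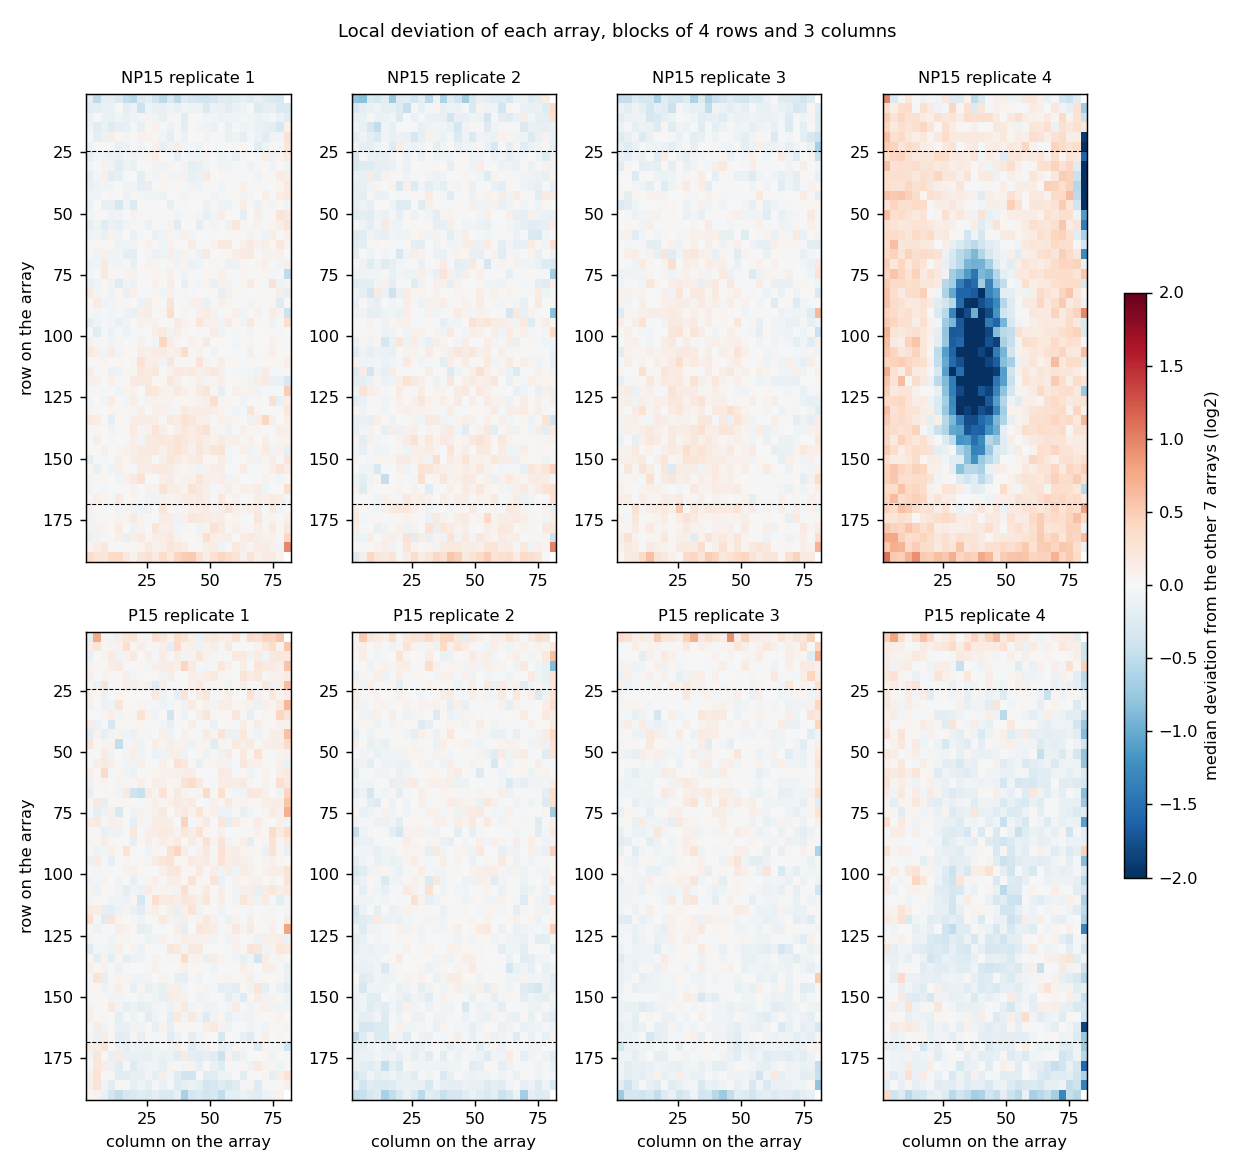
Median log2 deviation of each array from the other 7 arrays in blocks of 4 rows and 3 columns, with the array's rows on the vertical axis and its columns on the horizontal axis; blue is lower and red higher, the colours end at -2 and 2, and dashed lines bound the inner rows. NP15 replicate 4 carries an oval low patch and a low strip at the right edge, and across the other arrays the top rows are lower in NP15 and higher in P15, with the opposite in the bottom rows.

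Repeated copies of the same probe show how 1 probe read at different positions on these arrays. The glycolytic enzyme GAPDH was printed 100 times with 1 sequence, shown here because these copies should all give 1 value:
GAPDH: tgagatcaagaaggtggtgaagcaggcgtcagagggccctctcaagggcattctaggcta
The 53 inner copies outside the low area had a mean log2 change of -0.02 ± 0.04 (SD over copies), with single copies from -0.10 to 0.06. With the percentile taken over probes in no low area, the mean change of the same 53 copies was 0.04. The 19 inner copies inside the low area of NP15 replicate 4 had a mean change of 0.22 and reached 0.57, and on that array they averaged 0.92, against 1.84 to 2.00 on the other 7 arrays. In the first 24 rows the 16 copies averaged 0.16, with 0.74 in row 1. In the last 24 rows the 12 copies averaged -0.23, with -0.78 in row 192. Within the inner rows a small slope remained, from 0.01 over the copies nearest the top to -0.05 over those nearest the bottom. The same probe thus ran from 0.74 to -0.78 across the array, and nearly flat across the inner rows outside the low area.

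Other probes printed in more than 1 place gave the same picture. TPP1, a lysosomal peptidase, carried 1 sequence in an outer and an inner row:
TPP1: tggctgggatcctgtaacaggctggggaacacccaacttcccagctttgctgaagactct
Its change was 1.09 in row 8 and -0.10 in row 142. For 27 such pairs with both members in inner rows outside the low area, the changes of the members differed by a median of 0.04 and at most by 0.60. That widest inner gap was between 0.27 in row 28 and -0.33 in row 153. For 16 pairs of an inner and an outer member the median difference was 0.13, and for 22 pairs with a member in the low area it was 0.23. NEIL2, a DNA repair glycosylase, showed the widest gap of the last kind, at -0.29 in row 84 and 0.90 in row 115 inside the low area.

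**Figure D2:**
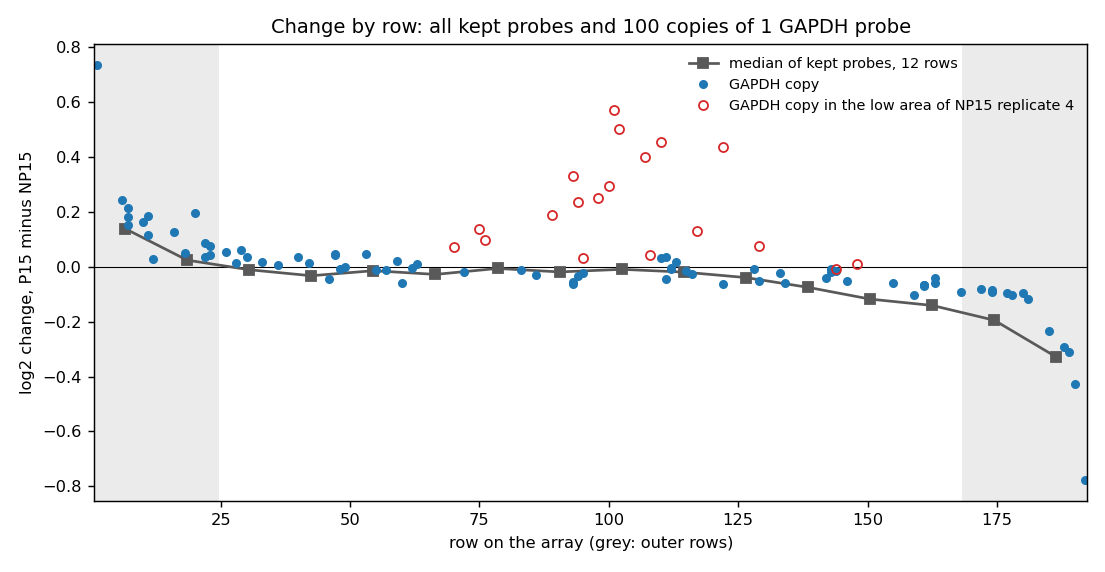
Log2 change, P15 minus NP15, against the row on the array: squares are medians of kept probes in blocks of 12 rows, filled points are GAPDH copies, open points are GAPDH copies in the low area of NP15 replicate 4, and grey bands are the outer rows. Medians run from 0.14 in the first block to -0.33 in the last, and the open points reach 0.57.

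At an unadjusted p under 0.05 there were 390 of 9308 inner genes (4.19%). Of these, 65 were higher in P15 (0.698%) and 325 lower (3.49%). The 4 pregnant animals lay wholly above the 4 cyclic ones in 45 genes (0.484% of 9295 genes with all 8 values) and wholly below them in 256 (2.75%), which together makes 3.24%. With low-area spots left out the 45 and 256 became 76 (1.04%) and 143 (1.95%) of 7323 genes, since genes with a low-area spot then lack a value. They became 115 and 122 with the row trend removed and 131 and 126 with cyclic loess, so their split depended on the setting. The balance of the directions at an unadjusted p under 0.05 moved with the same choices. With low-area spots left out there were 474 genes (5.09%), 139 higher (1.49%) and 335 lower (3.6%), counts in which the higher 75th percentile of NP15 replicate 4 also takes part. With the row trend removed as well there were 380 genes (4.08%), 165 higher (1.77%) and 215 lower (2.31%). Of all changes 50.2% were then under 0, against 58.1% with low-area spots left out alone. Removing the trend centres each array along its rows, so that share follows from the method, and the balance of the directions moves with it. The 2 directions stood at 86 and 234 with quantile normalization, at 77 and 131 with normexp background correction and at 174 and 136 with cyclic loess. The count of higher genes was 134 (1.44%) with the replicate number as a block, and 98, 37 and 135 when NP15 replicate 1, 2 or 4 was left out. Limma called 0 inner genes under each of these settings.

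The largest inner-row changes among genes with a symbol were taken from the 53 genes with an unadjusted p under 0.05, groups that did not overlap and signal well above background on all 8 arrays. These were 6 higher and 47 lower, and all 6 higher genes and the 12 lower ones with the largest change are described here. They were selected for that pattern, so their p-values support nothing further. Over 30 other settings the 18 genes kept their sign in 522 of 522 values, and the smallest adjusted p any of them reached was 0.137. With low-area spots left out, 16 of the 18 kept an unadjusted p under 0.05 and 15 kept groups without overlap. Of the 18, 6 had a low-area spot. For these, leaving that value out can hardly make the groups overlap, so their separation there shows nothing further.

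CD2, an adhesion receptor of T and natural killer cells, had the largest difference upward. It stood at -5.04, -5.02, -4.90 and -6.33 on NP15 replicates 1 to 4 and at -4.14, -4.66, -3.94 and -4.05 on P15 replicates 1 to 4. The log2 change was 1.13 (SE 0.33). Every pregnant animal lay above every cyclic one, and the lowest cyclic value belonged to a spot in the low area, without which the change was 0.79. Other T cell genes stood otherwise: CD3E, a chain of the T cell receptor complex, differed by 0.15 (SE 0.53) and the kinase LCK by -0.21 (SE 0.20).

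CYB561, a transmembrane electron carrier of secretory vesicles, was at -2.36 to -2.01 in NP15 and -1.74 to -1.29 in P15 (change 0.63, SE 0.14). ITPR3, a receptor that releases calcium from the endoplasmic reticulum, was at -2.30 to -1.95 in NP15 and -1.81 to -1.33 in P15 (change 0.52, SE 0.14). PKIG, an inhibitor of protein kinase A, the kinase through which luteinizing hormone acts, was at 0.37 to 0.70 in NP15 and 0.91 to 1.30 in P15 (change 0.44, SE 0.13). Its probe lies in row 168, where the median change of kept probes was -0.19, and with low-area spots left out and the row trend removed its change was 0.62. The tight junction protein OCLN differed by 0.34 (SE 0.12) and the vasopressin receptor AVPR2 by 0.31 (SE 0.12). Without low-area spots AVPR2 was at 0.24 and no longer had an unadjusted p under 0.05.

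RASSF2, a Ras-binding protein that promotes apoptosis, had the largest difference downward. It stood at -3.88, -4.06, -4.11 and -3.18 in NP15 and at -5.05, -4.55, -4.78 and -4.46 in P15 (change -0.90, SE 0.23). The highest pregnant value was under the lowest cyclic one, and the probe lies in row 63, in a block of rows with a median change of -0.03. RNASE4, a secreted ribonuclease, was at 3.18, 2.23, 3.45 and 2.37 in NP15 and 1.77, 2.19, 1.97 and 1.85 in P15 (change -0.86, SE 0.28). Its groups were separated only by 2.23 in NP15 and 2.19 in P15.

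KLHL40, known from muscle as a stabiliser of sarcomere proteins, differed by -0.83 (SE 0.29), with 1 cyclic animal at -2.52 and the other 3 between -3.60 and -3.49. SMOC1, a matricellular calcium-binding protein, was at -4.18 to -3.74 in NP15 and -4.79 to -4.32 in P15 (change -0.66, SE 0.16). The axonemal dynein chain DNAI1 differed by -0.63 (SE 0.19) and CLMN, an actin-binding membrane protein, by -0.59 (SE 0.18). WDR41, part of a complex that acts in autophagy, differed by -0.56 (SE 0.15), and FUT4, a fucosyltransferase, by -0.55 (SE 0.17).

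HIBCH, a mitochondrial enzyme of valine breakdown, was at 0.49 to 0.69 in NP15 and -0.41 to 0.33 in P15 (change -0.53, SE 0.17). GPRC5A, an orphan receptor induced by retinoic acid, differed by -0.50 (SE 0.14), BDKRB2, the bradykinin receptor of blood vessels, by -0.47 (SE 0.14) and CRIP1, a zinc-binding LIM protein, by -0.47 (SE 0.18). Of the 12 lower genes, 9 lie nearer the bottom edge of the array than the top, where block medians of all probes ran from -0.01 to -0.14. With the row trend removed together with the low-area spots, BDKRB2 was at -0.31 and CRIP1 at -0.36, neither with an unadjusted p under 0.05, and the other 16 of the 18 genes kept theirs.

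**Figure D3:**
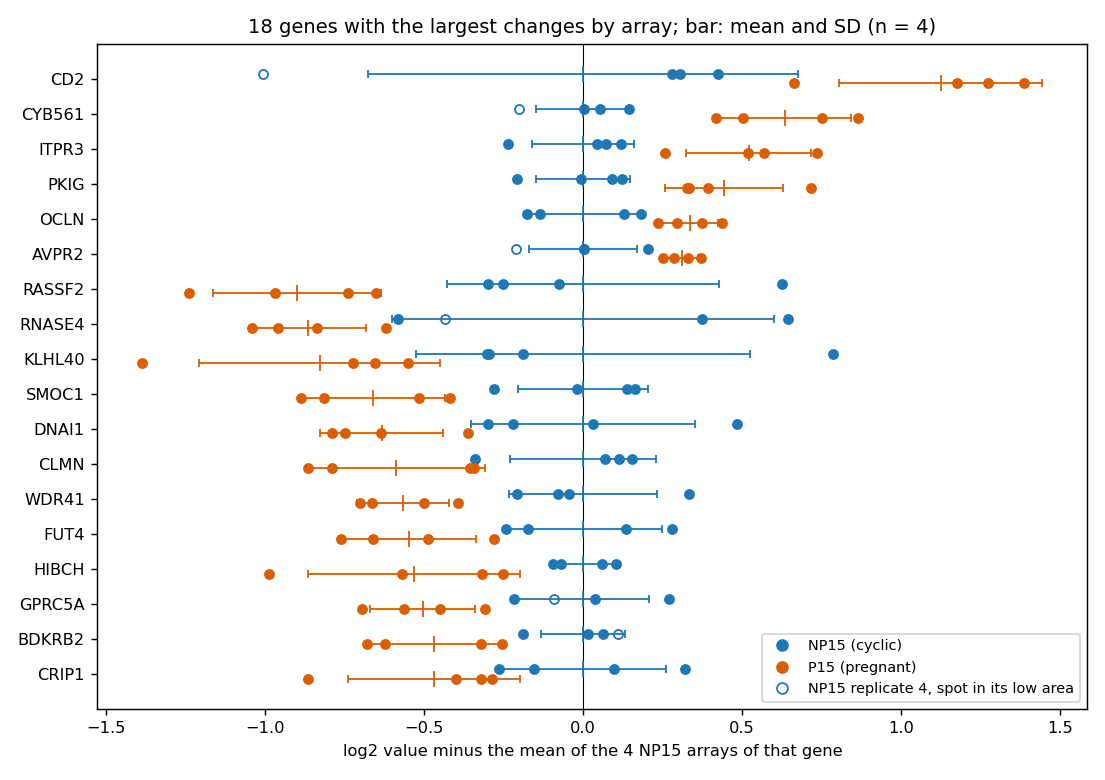
Log2 value of each array minus the NP15 mean of the gene for the 18 genes with the largest changes; blue points are NP15 animals, orange points P15 animals, open points NP15 replicate 4 spots in its low area, and bars the mean with the SD over 4 arrays. By selection no orange point overlaps the blue ones, and the open CD2 point lies apart from the other 3 cyclic values.

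The title of the series names PPARD, a nuclear receptor for fatty acids, and CYP21A2, which converts progesterone to deoxycorticosterone. The inner PPARD probe lies in row 141 and is shown because the title names this gene:
PPARD: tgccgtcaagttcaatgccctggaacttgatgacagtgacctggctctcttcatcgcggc
It stood at -7.03, -7.12, -6.91 and -5.91 in NP15 and at -7.07, -7.64, -7.28 and -7.11 in P15. The change was -0.53 (SE 0.28, 95% interval -1.17 to 0.11, limma adjusted p = 0.929). Only NP15 replicate 4 stood clear of the others, and the groups overlapped. The probe was well above background on 4 cyclic and 2 pregnant arrays, so the pregnant mean lies near the detection limit. CYP21A2 has no inner-row probe and is given with the outer rows.

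The list of PPARs, retinoid receptors and their targets in lipid oxidation had 22 measured inner members. At an unadjusted p under 0.05 there were 0 higher and 0 lower, and the median change was -0.16, against -0.05 over all inner genes. PPARG, the receptor of fat cells, was at 0.33 (SE 0.18) and 0.18 without the low-area spot. The retinoid X receptor RXRA, the partner of the PPARs on DNA, was at -0.02. CRABP1, a retinoic acid carrier, was at -0.90 (SE 0.46) and ANGPTL4, a secreted PPAR target that inhibits lipoprotein lipase, at -0.72 (SE 0.44). For ANGPTL4, P15 replicates 1, 2 and 4 were at 1.62, 1.94 and 0.94, under all cyclic animals (2.13 to 3.07), and replicate 3 lay within the cyclic range. The list's median was under 0 in all of 30 other settings, between -0.23 and -0.03.

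Progesterone synthesis, averaged over its genes, differed little between animals, while single members ranged more widely. Of 16 measured inner members, 0 were higher and 0 lower at p under 0.05, and the median change was -0.02 (above 0 in 7 of 30 settings). STAR, which brings cholesterol into the mitochondrion, was at 7.55, 7.28, 7.60 and 7.83 in NP15 and 7.91, 7.43, 7.46 and 7.64 in P15 (change 0.05, SE 0.16), so the groups covered the same range. CYP11A1, which cleaves the side chain of cholesterol, was at 6.26 to 6.52 in NP15 and 6.07 to 6.26 in P15 (change -0.25, SE 0.11), and its change was -0.13 with low-area spots left out and the row trend removed. FDX1, which passes electrons to that enzyme, was at -0.11 and ran from 3.47 to 4.32 over the 8 animals. TSPO, a cholesterol-binding protein of the outer mitochondrial membrane, was at -0.35 (SE 0.20) and ran from 1.89 to 3.03. CYB5A, an electron donor to steroid enzymes, was at 0.28 (SE 0.14). Averaged over the 13 members outside the low area, with that percentile, the deviation of single animals from the mean of all 8 stayed between -0.06 and 0.07. The percentile is 0.22 higher on NP15 replicate 4 and lowers its values, so this narrow range depends on it.

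Cholesterol supply showed no called gene either, with 0 higher and 0 lower of 18 members at p under 0.05 and a median of -0.13 that stayed under 0 in 30 of 30 settings. The median over all inner genes was -0.05. VLDLR, a lipoprotein receptor, was at -0.73, -0.77, -0.36 and -0.06 in NP15 and -0.57, -0.97, -1.12 and -0.97 in P15 (change -0.43, SE 0.20). Of the 4 pregnant animals, P15 replicate 1 alone lay within the cyclic range. SCARB1, which takes up cholesterol from high-density lipoprotein, was at 0.24 (SE 0.13). SCARB1 has no low-area spot. With the 75th percentile taken over probes in no low area it was at 0.31, with an unadjusted p under 0.05, and the groups did not overlap.

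Among luteal hormone receptors and their ligands, 17 inner members were measured, with 0 higher and 2 lower at p under 0.05 and a median of 0.09 (under 0 in 5 of 30 settings). Of all inner genes, 0.698% were higher and 3.49% lower. GHR, the growth hormone receptor, was at -0.28, -0.73, -0.62 and -0.99 in NP15 and -1.13, -1.44, -0.86 and -1.50 in P15 (change -0.58, SE 0.20). Of the 4 pregnant animals, 3 lay under all cyclic ones. IGF1R, the receptor of insulin-like growth factor 1, differed by -0.33 (SE 0.14), with all pregnant values under all cyclic ones. FST, which binds activin, was at 3.75, 2.87, 2.14 and 1.63 in NP15 and 4.16, 4.10, 2.40 and 4.13 in P15, and without its low-area spot the change was 0.78. LHCGR, the receptor for luteinizing hormone, turned on the low patch. It stood at -1.13, -0.63, -0.17 and -4.02 in NP15 and at -1.32, -0.97, -1.15 and -2.16 in P15 (change 0.09, SE 0.78), and without the low-area spot the change was -0.76, still short of an unadjusted p under 0.05. OXT, the oxytocin made by large luteal cells, was at -0.21 (SE 0.22).

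Prostaglandin synthesis and receptors had 20 measured inner members, 0 higher and 0 lower at p under 0.05, and a median of -0.05 (above 0 in 10 of 30 settings). PTGFR, on which prostaglandin F2 alpha acts to start luteal regression, was at 2.83, 2.33, 3.06 and 2.82 in NP15 and 3.40, 2.65, 2.48 and 3.05 in P15 (change 0.14, SE 0.24). PTGS2, the inducible cyclooxygenase, was at -0.03 (SE 0.48), and the highest animal of each group was replicate 4. SLCO2A1, the prostaglandin importer, was at 0.30 (SE 0.14). It has no low-area spot either, and with the same percentile as for SCARB1 it was at 0.36 with an unadjusted p under 0.05. PTGR1, an enzyme that inactivates prostaglandins, ranged from -0.89 to 1.88 in NP15 and -0.78 to 0.98 in P15.

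Interferon-stimulated genes split the pregnant cows. Of 19 measured inner members, 0 were higher and 1 was lower at p under 0.05, and the median change was 0.14 (above 0 in 29 of 30 other settings, with a range of -0.09 to 0.37). ISG15, which is joined to other proteins much as ubiquitin is, is a widely used marker of the conceptus signal in cattle. It stood at 0.15, 0.13, 0.44 and 1.65 in NP15 and at -0.52, -1.09, 1.78 and 3.06 in P15 (change 0.21, SE 0.89). Replicates 3 and 4 of the pregnant group were above every cyclic animal, and replicates 1 and 2 were below every cyclic animal.

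In the following members too, P15 replicates 3 and 4 lay above P15 replicates 1 and 2. The antiviral GTPase MX1 was at 0.91, 1.05, 2.76 and 3.53 in P15 and at 2.05, 1.66, 2.18 and 0.86 in NP15, the last a low-area spot. MX2, its relative, was at -6.79, -6.50, -5.73 and -4.31 in P15 and between -6.42 and -5.43 in NP15. RIGI, a sensor of viral RNA, was at -1.30, -1.19, -0.59 and 0.17 in P15 and between -1.16 and -0.95 in NP15. OAS1X, which makes the activator of RNase L, was at -5.11, -6.77, -2.06 and -2.84 in P15 and between -6.51 and -4.08 in NP15 (change 1.31, SE 1.04). IFIT3 was at -6.07, -5.75, -4.79 and -4.51 in P15 and IFIT5 at -0.50, -0.30, 0.05 and 0.30; both belong to a family that binds viral RNA.

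Over the 15 members outside the low area, the mean deviation of each animal from the 8-animal mean was -0.25, -0.12, 0.08 and -0.07 in NP15 and -0.29, -0.59, 0.44 and 0.80 in P15. The SD over animals was 0.13 in the cyclic group and 0.64 in the pregnant group. The difference in spread is a description, and no test of it was made. IFNAR1, part of the receptor for type I interferons and the 1 lower member, went its own way at -5.11, -5.14, -4.81 and -4.73 in NP15 and -5.64, -5.87, -5.36 and -4.95 in P15 (change -0.51, SE 0.21). With low-area spots left out and the row trend removed it was at -0.39 and no longer at an unadjusted p under 0.05. IFI47, an interferon-induced GTPase, had 1 of the largest spreads of the pregnant group: -6.76, -2.50, -0.71 and -0.59, against -1.55 to -1.11 in NP15.

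**Figure D4:**
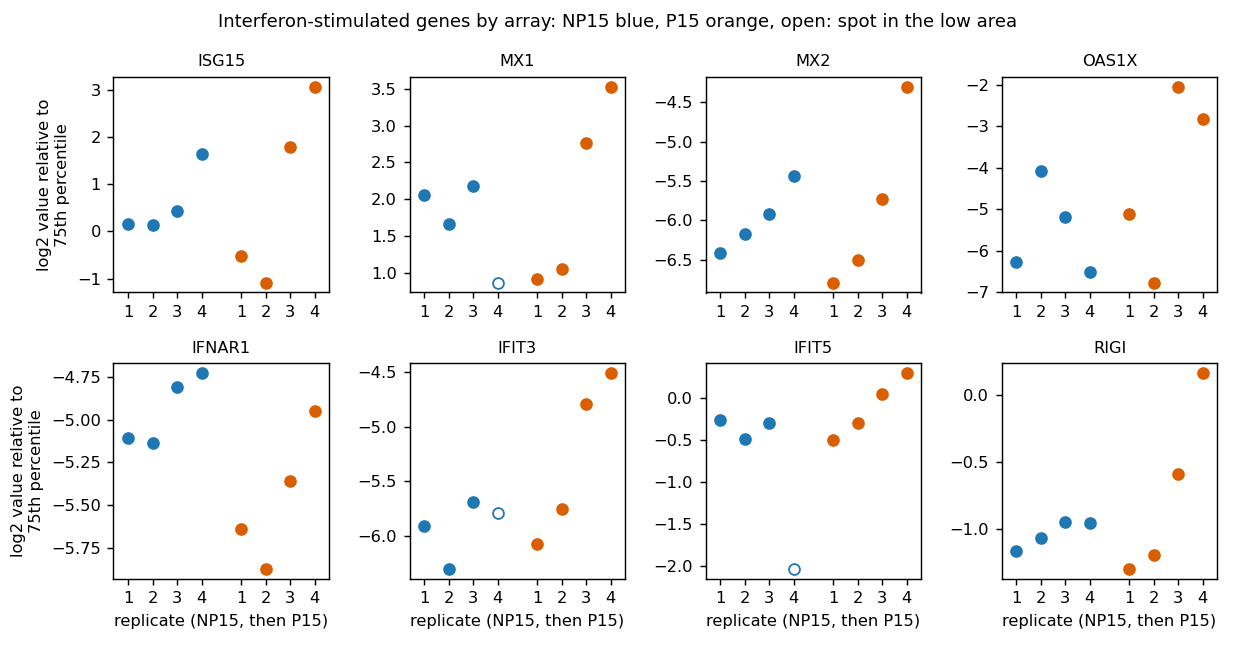
Log2 value relative to the array's 75th percentile for 8 interferon-related genes in the 4 NP15 (blue) and 4 P15 (orange) animals, with open points for spots in the low area of NP15 replicate 4; each panel has its own vertical axis. In ISG15, MX1, MX2, OAS1X, IFIT3, IFIT5, RIGI and IFNAR1 P15 replicates 3 and 4 lie above P15 replicates 1 and 2.

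Chemokines, cytokines and immune cell genes varied between arrays of a group rather than between the groups. Each animal has 1 array and each replicate number is 1 slide column, so animal and slide column cannot be told apart. Of 33 measured chemokine and cytokine members, 1 was higher and 0 lower at p under 0.05, with a median of -0.08 (above 0 in 6 of 30 settings). That member, IL12A, a subunit of interleukin 12, differed by 0.61 (SE 0.25). IL33, an alarmin of vessel and stromal cells, was at -5.57, -5.36, -5.40 and -4.71 in NP15 and -4.02, -4.24, -5.24 and -4.82 in P15 (change 0.68, SE 0.30). The mean deviation of the 25 members outside the low area was -0.30, -0.13, 0.12 and 0.59 in NP15 and -0.29, -0.57, 0.06 and 0.51 in P15, so replicate 4 was the highest animal of both groups. CCL2, which attracts monocytes, was at -0.06, -0.10, 1.28 and 1.69 in NP15 and -0.45, 0.07, 0.52 and 2.53 in P15. CCL8, a related chemokine, was at -3.08, -2.14, -0.99 and 0.01 in NP15 and -2.37, -2.95, -1.33 and -0.12 in P15. In neither did the groups separate (changes of -0.04 and -0.14).

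The cell type lists moved with these genes. For macrophages and other myeloid cells the mean deviation over 13 members was -0.13, -0.26, 0.04 and 0.35 in NP15 and -0.25, -0.34, -0.03 and 0.62 in P15. For T cells and natural killer cells, over 13 members, it was -0.19, -0.51, 0.34 and 0.37 in NP15 and -0.25, -0.36, 0.21 and 0.39 in P15. For B cells and plasma cells, over 6 members, it was -0.21, -0.30, 0.03 and 0.51 in NP15 and -0.23, -0.32, -0.12 and 0.64 in P15. In all 3, replicate 4 was the highest animal of its group, and replicate 2 the lowest. Antigen presentation genes, 9 members, gave -0.40, -0.35, 0.09 and 0.57 in P15 and ranged from -0.34 to 0.41 in NP15. Among single markers, the B cell kinase BLK was at -2.99 on P15 replicate 4 and between -5.44 and -5.19 on the other P15 arrays. CD14, a monocyte receptor, was at -1.94 on P15 replicate 4 and between -3.21 and -3.12 on the others. The part that immune cell content has in the interferon and chemokine values was not tested.

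Counts in these lists were small. At p under 0.05 the T cell list had 1 higher member of 16, CD2, and 0 lower. The myeloid list had 0 of 16 in either direction, the B cell list 0 of 6 and antigen presentation 0 of 14. TLR2, a receptor for bacterial lipoproteins, was at 0.57 (SE 0.26). It has no low-area spot, and with the 75th percentile taken over probes in no low area it was at 0.64 with an unadjusted p under 0.05. C1QB and C1QC, macrophage-made chains of complement C1q, were at 0.75 (SE 0.34) and 0.63 (SE 0.43). C1QA, the other chain of C1q, was at -0.30 (SE 0.16), with values of -5.85 to -5.58 in NP15 and -6.34 to -5.69 in P15. The myeloid list's median was -0.14, under 0 in 28 of 30 settings. The complement and coagulation list had 0 of 26 in either direction and a median of 0.02 (under 0 in 3 of 30 settings).

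Immediate early genes, which respond within minutes to stress or hormones, also varied between arrays of a group, where animal and slide column cannot be told apart. FOS was at -2.99, -3.03, -0.79 and 1.90 in NP15 and -3.88, -1.08, -0.47 and 1.82 in P15 (change 0.32, SE 1.42). The nuclear receptor NR4A2 was at -1.66, -1.65, -0.20 and -0.54 in NP15 and -1.81, -0.66, 0.32 and 1.85 in P15. For FOS, replicate 4 was the highest animal of both groups, and the ranges nearly coincided. Of the 20 list members, 0 were higher and 0 lower at p under 0.05, with a median of 0.08 (under 0 in 2 of 30 settings). The 15 members outside the low area had a mean deviation of -0.16, -0.29, 0.00 and 0.36 in NP15 and -0.29, -0.05, -0.08 and 0.50 in P15. HSPA1A, the stress-induced heat shock protein, was at -0.62 (SE 0.32). The time from exsanguination to sampling is not given per animal, and its part in these values was not tested.

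The lymphatic gene CCL21 set 1 pregnant cow apart. CCL21, the chemokine of lymphatic endothelium that draws T cells and dendritic cells, was at 1.48, 0.53, 1.80 and -5.09 in P15 and at 1.30, 1.74, 1.00 and 1.07 in NP15. P15 replicate 4 thus lay far under every other animal. The mean deviation of the lymphatic list, 5 members outside the low area, was -0.67 on that array and between 0.09 and 0.23 on the other P15 arrays. CCL21 carried that value: without it the mean deviation of the other 4 members was 0.55 on P15 replicate 4 and between -0.15 and 0.26 on the other P15 arrays. Among these, LYVE1, a hyaluronan receptor of lymphatic endothelium, was at 0.43 on P15 replicate 4, its highest pregnant value, and VEGFC, a growth factor for lymph vessels, was at 1.79. VEGFD, the other such factor, was at -7.56 to -6.93 in NP15 and -6.79 to -5.37 in P15 (change 0.78, SE 0.33), with groups that did not overlap and signal well above background on 3 of the 4 pregnant arrays. It was the 1 higher member of 6 at p under 0.05, and 0 were lower.

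**Figure D5:**
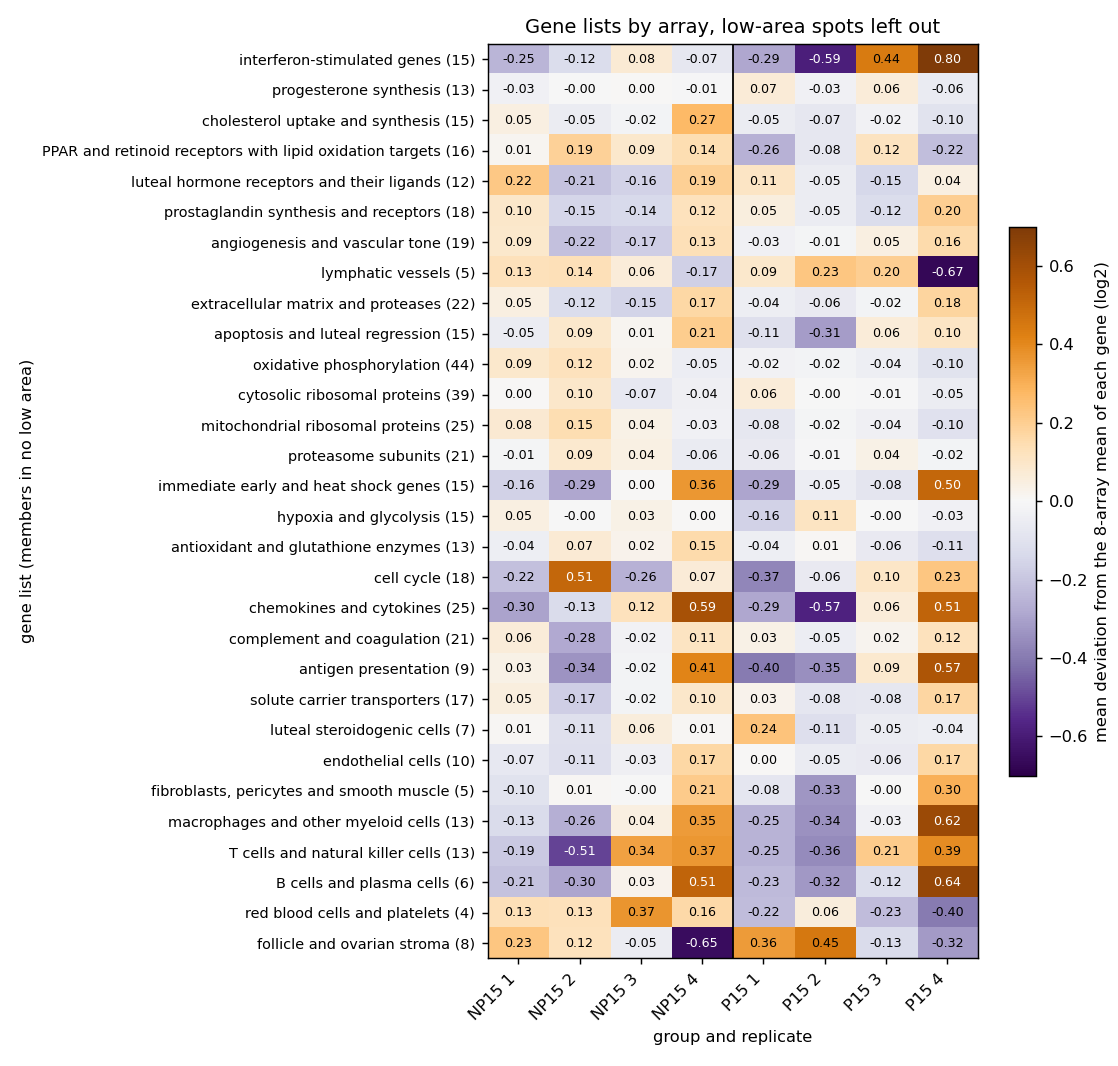
Mean log2 deviation of each list from the 8-array mean of its genes, in each NP15 and P15 animal, over members outside the low area (number in brackets); brown is higher and purple lower, with colours that end near the largest values. Progesterone synthesis stays between -0.06 and 0.07, interferon-stimulated genes run from -0.59 to 0.80, and the chemokine, myeloid, B cell and immediate early lists are highest on replicate 4 of both groups. The 75th percentile was taken over probes in no low area, which is 0.22 higher on NP15 replicate 4 and lowers its values.

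Mitochondrial genes were mostly under 0, as were most inner genes. Of 53 measured oxidative phosphorylation members, 0 were higher and 3 lower at p under 0.05, and the median was -0.14 against -0.05 over all inner genes. A change under 0 was found in 46 of the 53, where 58.9% of all inner genes and 68.4% of those in no low area had one. In 13 of the 53 all pregnant animals lay under all cyclic ones, where 2.75% of all inner genes did. The 3 were NDUFV1 of complex I (change -0.28, SE 0.10), UQCRC1 of complex III (-0.25, SE 0.10) and NDUFS3 of complex I (-0.24, SE 0.10). NDUFV1 was at 3.78, 3.93, 3.81 and 4.03 in NP15 and 3.59, 3.70, 3.57 and 3.56 in P15, so every pregnant value was under every cyclic one. UQCRC1 lies in row 164, and with low-area spots left out and the row trend removed the 3 were at -0.17, -0.09 and -0.11, none with an unadjusted p under 0.05. SDHB of complex II was at -0.32 (SE 0.14) and COX4I1 of complex IV at -0.14 (SE 0.11). The list's median was under 0 in 30 of 30 settings, at -0.12 without low-area spots and -0.07 with the row trend removed as well. By animal, the mean deviation was taken over 44 members, with the 75th percentile over probes in no low area. It was 0.09, 0.12, 0.02 and -0.05 in NP15 and -0.02, -0.02, -0.04 and -0.10 in P15. NP15 replicate 4 lay within the pregnant range on that percentile only, which is 0.22 higher on that array and lowers its values. Its place among the animals therefore depends on the percentile used.

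Mitochondrial ribosomal proteins translate the subunits encoded in mitochondrial DNA. Of 32 measured members, 0 were higher and 4 lower at p under 0.05, against 0.698% and 3.49% of all inner genes. Of the 32, 26 were under 0, against the same 58.9% and 68.4%. The median was -0.14, under 0 in 30 of 30 settings (-0.08 without low-area spots, -0.06 with the row trend removed as well). MRPS25 was at 0.16, -0.02, -0.08 and 0.27 in NP15 and -0.32, -0.31, -0.28 and -0.29 in P15 (change -0.38, SE 0.11), with pregnant values close together and under all cyclic ones. MRPL54, MRPS26 and MRPS30 were at -0.27 (SE 0.11), -0.27 (SE 0.11) and -0.28 (SE 0.12). All 4 probes lie in rows 132 to 165, where block medians over all probes ran from -0.04 to -0.14. With low-area spots left out and the row trend removed, MRPS25 was at -0.23, still with an unadjusted p under 0.05, and the other 3 at -0.13 to -0.12, without it.

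Cytosolic ribosomal proteins differed less. Of 52 measured members, 0 were higher and 0 lower at p under 0.05, and the median was -0.04, above 0 in 8 of 30 settings. RPS29 showed the reach of the low patch, at 6.06, 6.02, 6.02 and 2.17 in NP15 and 6.15, 6.04, 6.02 and 6.08 in P15. Its change was 1.01 with the low-area spot and 0.04 without it. Proteasome subunits had 26 measured members, 1 higher and 0 lower, with a median of -0.09, under 0 in 30 of 30 settings, against -0.05 over all inner genes. The higher 1, PSMB1, differed by 0.32 (SE 0.13).

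Angiogenesis and vascular tone had 26 measured members, 1 higher and 0 lower at p under 0.05, and a median of 0.08 that stayed above 0 in 30 of 30 settings. AGTR1, the angiotensin II receptor, was at -0.84, -1.66, -1.30 and -1.52 in NP15 and -0.86, -0.92 and -0.61 on P15 replicates 1, 2 and 4, with replicate 3 just under these (change 0.48, SE 0.19). Only NP15 replicate 1 reached into the pregnant range. VEGFA, the main growth factor of luteal vessels, was at -0.19 (SE 0.28) and its receptor FLT1 at 0.00 (SE 0.21). Its other receptor, KDR, was at 0.47, and at 0.06 without its low-area spot. S1PR1, a receptor that stabilises endothelium, was at -0.25 (SE 0.12) with all pregnant values under the cyclic ones. The FGFR2 probe used here lies in row 89 inside the low area, at 0.75 (SE 0.37), and the same sequence in row 85 outside it gave 0.10. Endothelial markers had 12 measured members, 0 in either direction, with PECAM1 at 0.00 and CDH5 at 0.08.

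Matrix genes and proteases had 34 measured members, 1 higher and 0 lower at p under 0.05, with a median of -0.03 (above 0 in 6 of 30 settings). The higher 1, the collagen chain COL6A2, differed by 0.74 (SE 0.31) and by 0.46 without its low-area spot, no longer with an unadjusted p under 0.05. MMP9, a gelatinase, was at -2.55 to -2.01 in NP15 and at -3.21, -3.44, -2.28 and -2.27 in P15 (change -0.49, SE 0.29). TIMP1, an inhibitor of these proteases made by luteal cells, was at 4.48, 4.54, 4.45 and 2.65 in NP15 and 4.16, 3.72, 4.38 and 4.57 in P15. Its change was 0.18 with the low-area spot and -0.28 without it.

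Apoptosis and luteal regression had 20 measured members, 0 higher and 2 lower at p under 0.05, and a median of -0.15, under 0 in 30 of 30 settings. Of all inner genes, 0.698% were higher and 3.49% lower, 58.9% had a change under 0, and their median was -0.05. DIABLO, which frees caspases from their inhibitors, was at -4.25 to -3.90 in NP15 and -4.57 to -4.34 in P15 (change -0.36, SE 0.12). Its groups did not overlap, and with low-area spots left out and the row trend removed it was at -0.32 and kept an unadjusted p under 0.05. BCL2, which protects cells from apoptosis, was at 0.14 (SE 0.20) and its opponent BAX at -0.11 (SE 0.17).

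Metallothioneins gave some of the wider differences. Of 20 measured antioxidant and glutathione members, 1 was higher and 2 lower at p under 0.05, against 0.698% and 3.49% of all inner genes. The list's median was -0.04 (above 0 in 3 of 30 settings). MT1A, a metal-binding protein, was at -0.27, 0.61 and 1.83 on NP15 replicates 1, 2 and 4, with replicate 3 between replicates 2 and 4, and -0.07, -0.04, -0.74 and -0.31 in P15 (change -1.11, SE 0.41). MT2A, its close relative, was at -0.54, 0.32, 0.89 and 1.67 in NP15 and -0.23, -0.29, -0.87 and -0.44 in P15 (change -1.04, SE 0.43). In both, 3 of 4 cyclic animals lay above all pregnant ones and NP15 replicate 1 did not. The metallothioneins are near-identical genes whose probes may take up each other's transcripts, so the pair is not 2 independent results. GSTT1, a glutathione transferase, was at 1.62, 0.99, 0.14 and 0.74 in NP15 and 1.38, 1.43, 1.78 and 1.59 in P15 (change 0.67, SE 0.29).

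In the hypoxia and glycolysis list 0 of 19 members were higher and 1 lower, ARNT, the partner of HIF1A (change -0.37, SE 0.16), with HIF1A itself at -0.11 (SE 0.14). In the cell cycle list 0 of 21 were higher and 1 lower. That was MAD2L1, a spindle checkpoint protein (change -0.82, SE 0.33), well above background on 2 of the 4 pregnant arrays. The cyclins and kinases of mitosis differed between single arrays: CDK1 was at -4.34, -3.11, -4.44 and -3.99 in NP15 and -4.69, -4.53, -3.89 and -2.65 in P15. Solute carrier transporters had 0 of 22 in either direction, and the glucose transporter SLC2A1 was at -0.33 (SE 0.23).

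Markers of other cells that a piece of gland can hold were examined beside these results. The fibroblast, pericyte and smooth muscle list had 0 of 11 members in either direction and a median of 0.01 (under 0 in 8 of 30 settings). The follicle and ovarian stroma list had 0 of 14 in either direction and a median of 0.20, above 0 in 30 of 30 settings. INSL3, a hormone listed here for theca cells, was at 4.96, 6.12, 4.29 and 1.09 in NP15 and 6.30, 6.28, 3.07 and 2.49 in P15, with replicate 4 the lowest animal of both groups. Whether luteal cells or other cells made it cannot be told from whole tissue. Red blood cell and platelet genes had 0 of 6 higher and 1 lower, the globin HBA, which was not well above background on any pregnant array. Of 10 inner trophoblast probes, 1 passed the filter, for PAG8, and it was well above background on 3 cyclic arrays and 0 pregnant ones. No inner trophoblast probe was well above background on enough pregnant arrays to pass by that group.

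Single arrays, rather than the groups, stood apart on the first principal component. With all 8 arrays, the first component took 46.7% of the variance and placed NP15 replicate 4 at 75.4 and the other arrays between -17.0 and 6.9. Over the 7323 genes without a low-area spot, the 75th percentile was taken over probes in no low area. The first component then held 29.4% and placed NP15 replicate 4 at 26.7 and P15 replicate 4 at 29.7. The other 6 arrays lay between -18.8 and 0.00, and both arrays of replicate 4 lie in slide column 4. Of the 6 genes with the largest SD in NP15, 5 were low-area spots of NP15 replicate 4. Genes outside that area are described here. IBSP, a bone and matrix sialoprotein, was at 2.60 on NP15 replicate 4 and 2.59 on P15 replicate 4, and between -2.19 and 0.79 on the others. NGEF, a guanine nucleotide exchange factor, was at -4.90 on NP15 replicate 2 and between 0.14 and 1.46 on the other cyclic arrays. SCG2, a secretory granule protein, was at 2.63, 4.22, 3.58 and 0.65 in NP15 and 1.06, 2.90, 1.40 and 1.64 in P15.

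The outer rows gave a different result, reported apart because the change between the groups ran most strongly with the row there. NP15 arrays lay in slide row 1 and P15 arrays in slide row 2 of the same slide, so the position on the slide cannot be told apart from the group. This holds for the inner rows as well, where the median change reached -0.14 in rows 157 to 168. Limma called 202 of 3096 outer genes (6.52%), of which 75 rose in P15 (2.42%) and 127 fell (4.1%), and 125 were called (4.04%) with the replicate number as a block. The first 24 rows held all 75 rises, and the last 24 held 126 of the 127 falls. The count was 90, 124 and 127 when NP15 replicate 1, 2 or 3 was left out, and 106 and 117 when P15 replicate 2 or 3 was. It was 113 with normexp and 55 with the row trend removed.

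The homeobox gene MSX2, in row 1, was at -1.16 to -0.68 in NP15 and 1.42 to 1.62 in P15 (change 2.46, SE 0.13, limma adjusted p = 9.38e-05). The GAPDH copy in the same row changed by 0.74. LRRTM1, a synaptic adhesion protein in row 3, changed by 2.35, PFN3, an actin-binding profilin in row 1, by 2.06, LAS1L, a ribosome assembly factor in row 2, by 1.72 and MRPS28 in row 1 by 1.70. DLK1, a Notch-ligand homologue, lies in row 7, where the 3 GAPDH copies changed by 0.15 to 0.21. It was at -1.28, -1.28, -1.58 and -1.78 in NP15 and 0.13, 0.15, 0.21 and -0.17 in P15 (change 1.56, SE 0.15, adjusted p = 0.000721). GAPDH copies need not show the shift of other probes near the edge. TPP1 changed by 1.09 in row 8 and by -0.10 with the same sequence in row 142. The probe A_73_119402 in row 1, which the array describes as similar to human PPARD, was at -7.71 to -6.34 in NP15 and -4.85 to -4.67 in P15 (change 2.44, SE 0.28, adjusted p = 0.00152). The inner PPARD probe, at -0.53, did not share that rise.

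At the other edge, CYP21A2 in row 191 was at -1.67, 0.39 and -2.95 on NP15 replicates 1, 3 and 4, with replicate 2 close to the last, and -3.29, -4.13, -3.84 and -3.85 in P15 (change -1.97, SE 0.69, adjusted p = 0.139). The groups did not overlap, and the test was not passed. GLG1, a Golgi glycoprotein, ANGPTL7, an angiopoietin-like protein, the ribosomal protein RPL13 and SOX9, a transcription factor, fell. None of these 4 was well above background on any pregnant array, and TG, thyroglobulin, which fell too, was so on 1, so no sizes are given for them.

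Genes with probes in both zones put the edge effect on the same transcripts. For 52 such genes well above background on all 8 arrays, the outer change minus the inner one had a median of 0.14 in the first 24 rows (25 genes) and -0.18 in the last 24 (27 genes). Of these genes 4 were called by the outer probe. The histone H3-3A changed by 0.92 in row 1 and -0.11 in row 41, and COX17, a copper chaperone of complex IV, by 0.70 in row 2 and -0.07 in row 84. The ribosomal protein RPL4 changed by 0.54 in row 12 and 0.25 in row 97. SMOC1 was the 1 gene of the 4 with an unadjusted p under 0.05 on the inner probe too, at -2.04 (SE 0.14, adjusted p = 0.000116) in row 191 and -0.66 in row 137.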

How the data were processed

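Whole corpus luteum RNA (400 ng per array, labelled with Cy3, per the labels' protocols) was measured on 1-colour Agilent arrays. The authors read the deposited intensity values from the scans with Agilent Feature Extraction 9.5, per the submitters' processing notes. Their processed signal had background subtracted and a step for spatial trends, per the file headers. The factor for multiplicative trends was 1 for every gene probe on every array, so it changed no signal. The trend by row described above remained in the values. The authors' deposited table of log2 values differed from the scanner values by 1 constant per array and served as an alternative.

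Processed signals were put on a log2 scale, and the 75th percentile of all gene probes was subtracted within each array. Spots marked as outliers were set to missing, and the brightest kept inner probe stood for a gene. Groups were taken from the sample titles and compared by limma (lmFit and eBayes, two-sided, version 3.58.1 under R 4.3.3), with Benjamini-Hochberg adjustment over all inner genes, or over all outer genes. The fit was tested on simulated data. Symbols for 6172 of 15208 probes came from a RefSeq gene table of ARS-UCD2.0, used for names alone, and 8982 probes were not matched. Probe sequences are those of the array files.

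The comparison, the 31 gene lists and the rule for named genes were chosen with earlier results of these data known. The rule named PPARD and CYP21A2 from the title. It then named up to 12 higher and 12 lower inner genes with the largest change among those with a symbol, an unadjusted p under 0.05, no overlap and signal well above background on all 8 arrays. Of each list it took the first 4 members and up to 4 further ones with the smallest p, and it added up to 6 genes with the largest SD in each group. Among called outer genes it took up to 6 in each direction, with genes that have probes in both zones. GAPDH, TPP1, NEIL2 and the row 1 probe described as PPARD were named for their position, after their values were seen.

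Replicate numbers in the titles equal slide columns. Deviations from the group means of same-numbered arrays correlated at 0.129, 0.151, 0.102 and 0.292, which met the rule for pairing (over 0.1 in every pair). Without low-area spots the third was 0.096 and the fourth 0.398. Arrays with different numbers correlated at -0.242 to 0.187, the highest being NP15 replicate 1 with P15 replicate 2. That value lies above the same-number values other than 0.292, so the rule cannot show pairing. The number was used as a block in an alternative only. Low-area spots were those whose neighbours lay more than 0.5 log2 units under the other arrays. Leaving them out also took the 75th percentile over probes in no low area, and list means by animal always used that percentile. Normalization, background correction, filters, position, array weights and each array left out in turn were the other alternatives. A few genes, and the sequence of 1 probe, are not reported here.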

Additional observations from a re-analysis of the deposited data

Results flagged for a closer look

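An animal was singled out when its gap to the nearest of the other 3 animals of its group took up nearly the whole range of the group, by Dixon's 95% limit. Chance gives about 1 such case in 20 groups. It occurred in 37 of 407 gene groups, 17 of them spots in the low area of NP15 replicate 4, and in 2 of 60 list groups. Values are log2 relative to the array's 75th percentile, taken over probes in no low area for list means.

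The 17 low-area spots of NP15 replicate 4 were all the lowest of their group. CD2 was at -6.33, IFIT5 at -2.04, PTGES2 at -4.12, FGFR2 at -3.20, TIMP1 at 2.65, NDUFA1 at 3.04, RPS6 at 3.06 and RPS29 at 2.17. PSMA1 was at 1.67, HSPA9 at -2.68, BOLA-DMB at 1.23, SLC16A1 at -2.81, THY1 at -1.22, ACAD8 at -4.06, TBC1D31 at -4.41, RBM39 at -2.55 and SLBP at -5.48. The other cyclic animals lay at 1.15 to 1.45 for ACAD8 and 2.17 to 2.44 for RBM39.

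Outside the low area, NP15 replicate 4 was highest for TSPO at 3.03 and AHSP at -4.50. Among other cyclic animals, KLHL40 was highest on replicate 2 at -2.52, RXRA on replicate 3 at -2.49 and TEK on replicate 1 at 0.09. RPS26 was lowest on replicate 3 at 2.06, C1QA on replicate 3 at -5.85 and SOD1 on replicate 2 at 3.56. The mean deviation of the red blood cell and platelet list was highest on replicate 3, at 0.37 against 0.13 to 0.16. Replicate 4, at 0.16, is lowered there by its higher percentile, so this case depends on the percentile used.

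In the pregnant group, replicate 4 was highest for PKIG at 1.30, CCN1 at 1.64, CD14 at -1.94 and BLK at -2.99, and lowest for COL6A2 at -2.07, PSMC1 at 0.92 and HSPA9 at -0.49. Its mean deviation for the lymphatic list was -0.67, against 0.09 to 0.23. CCL21, at -5.09, carried that value, and without it the deviation was 0.55. Replicate 3 was lowest for IGF1R at -2.72 and FST at 2.40, and highest for NGEF at 0.79. NDUFV1 was highest on replicate 2 at 3.70, and SDHB lowest on replicate 1 at 0.58.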

How the results depend on the processing

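Limma called 0 genes in every setting fitted to the inner rows alone. With inner and outer rows in 1 fit it called 57 of 12347 genes. That count, like the others given below for all rows, covers both zones and is not a count of inner genes. At an unadjusted p under 0.05 the 390 inner genes became 208 with normexp, 861 with no filter on dim probes, 179 over narrower inner rows, 1024 with all rows in one fit, 610 with array weights and 652 with low-area spots left out and the replicate block. Leaving out 1 array at a time gave 281 to 549. The 65 higher genes became 134 with the replicate block, 174 with cyclic loess, 474 with no filter, 36 over narrower rows, 259 with all rows, 117 with the row trend removed and 154 with array weights. They became 139 with low-area spots left out, 130 over probes in no low area, 105 with the local deviation subtracted, 227 with low-area spots left out and the block, and 165 with low-area spots left out and the row trend removed, and 37 to 135 with 1 array left out. The 325 lower genes became 131 with normexp, 136 with cyclic loess, 205 with signal well above background on all 8 arrays, 143 over narrower rows, 765 with all rows, 171 with the row trend removed, 195 with the local deviation subtracted and 215 with low-area spots left out and the row trend removed. The 301 genes without overlap became 190 with normexp, 151 over narrower rows, 801 with all rows, 192 with the local deviation subtracted, 189 with low-area spots left out and the row trend removed, and 479 to 693 with 1 array left out, where fewer values have to separate. Genes with a low-area spot are not counted in the 192 and the 189, and the 189 are 2.58% of 7323 genes. Of the 202 outer calls, the count was 125 with the replicate block, 113 with normexp, 55 with the row trend removed and 90 to 191 with 1 array left out. The wider and narrower row ranges and the filters change how many genes are tested; for the other settings the cause was not tested. The replicate block changed no other call.

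Of 929 list medians under other settings 910 moved by less than the spread between animals and 19 by more, and of 6463 named gene changes 6416 and 47 did. With 4 animals a group the smallest exact two-sided p for a single value is 0.0286. Dim probes such as PPARD lie near background, which limits what their changes can show, and 1 array carries a dim patch over 21% of its inner probes. The settings that leave out or adjust low areas were chosen after seeing the data.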
